A study of Mus musculus with 9 samples.

Results

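The genes described here encode the enzymes that turn arachidonic acid into prostaglandins, thromboxane and leukotrienes, together with the enzyme that begins the breakdown of prostaglandins. They are the 10 genes Ptgs1, Ptgs2, Ptges, Ptgis, Tbxas1, Alox5, Alox5ap, Lta4h, Ltc4s and Hpgd, chosen by symbol from a table of 52381 genes, and each symbol occurred once. RNA was sequenced from the lungs of mice whose acute lung injury (ALI) had been induced with LPS, the lipopolysaccharide of bacterial outer membranes. The group labelled TMAO-treated LPS-ALI, called TMAO here, held 5 mice that also received trimethylamine N-oxide (TMAO), which the liver makes from trimethylamine released by gut bacteria. The group labelled LPS-ALI held 4 mice with the injury and no TMAO, so every mouse in both groups had LPS injury, and uninjured lungs are not analysed here. Strain, age, doses and times were not stated in the labels used here. The comparison asks how TMAO changes gene expression in the injured lung.

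Arachidonic acid is freed from membrane lipids by phospholipases. The cyclooxygenases, encoded by Ptgs1 (constitutive) and Ptgs2 (induced by inflammatory stimuli), convert it to the prostaglandin precursor PGH2, from which terminal synthases make prostaglandin E2, prostacyclin or thromboxane. In leukocytes, 5-lipoxygenase and its activating protein make leukotriene A4, which is turned into the neutrophil attractant leukotriene B4 or into the cysteinyl leukotrienes, which constrict airways and open vessels. The lung is a main site where circulating prostaglandins are taken up and inactivated, a route that begins with the transporter encoded by Slco2a1 and the dehydrogenase encoded by Hpgd.

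The deposited values are FPKM, fragments scaled to gene length and to the library total, so levels of different genes are compared per length. Relative sequencing depths, read from the spacing of low values with the deepest library set to 1, were 0.382 to 0.683 in TMAO and 0.496 to 1 in LPS-ALI libraries. Absolute depth is unknown, so no counting interval is given. TMAO replicate 5 was the shallowest library and had the fewest genes at 1 FPKM or more, 8846, where the other 8 had 11158 to 12239. LPS-ALI replicate 4 had the lowest summed FPKM of 8 alveolar type 2 markers, 1249, against 4870 to 14468 in the others. Mitochondrial transcripts made up 33.4% of the summed FPKM in LPS-ALI replicate 4 and 52.2% in TMAO replicate 5, the lowest and highest shares of the 9 libraries. Both libraries stand apart, so results that rest on them are also given without them. Codes starting with X belong to LPS-ALI replicates 3 and 4 and codes starting with B to the other 7 libraries, and what the letters stand for is not stated in the labels used here. In bulk tissue, fewer cells of a type and less RNA per cell cannot be told apart.

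None of the 10 enzyme genes passed the test between groups over all genes. Within each lung, however, the balance between enzyme transcripts differed. Transcripts of Ptgs2 were lower relative to Ptgs1, and lower relative to Hpgd, in every TMAO lung than in any LPS-ALI lung. Both ratios share Ptgs2, and Ptgs1 and Hpgd varied together over the 9 lungs (Pearson r = 0.914, relative to the median gene). The ratios are therefore not independent of each other. These ratios are among 4 chosen with earlier results of these data known, so their p-values are descriptive. How many other gene pairs separate the groups as fully was not computed. Hpgd had the largest difference, with mean FPKM of 909.7 ± 313 (SD, n = 5) in TMAO and 344 ± 244 (SD, n = 4) in LPS-ALI lungs. Of the 10 genes, 9 reached 1 FPKM in 4 or more libraries and entered the test, and Tbxas1 did not. By limma on log2(FPKM + 1), 0 of these 9 passed a Benjamini-Hochberg adjusted p of 0.05 over 11817 genes. The background was the same, with 0% of tested genes called and a smallest adjusted p of 0.382. With library weights limma called 51 genes, none of them a member. At an unadjusted p under 0.05, limma gave 396 of the 11817 genes, or 3.35%, and 1 of the 9 members, Hpgd. Among all genes, 0.423% met that threshold with a higher level in TMAO, the direction of Hpgd, and 2.93% with a lower level. No member had groups that did not overlap in FPKM, against 1.48% of all tested genes.

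Over all tested genes the median log2 difference was -0.17, and it was -0.02 under median-of-ratios scaling. Differences are therefore given relative to the median gene first, with the unshifted value after it. The median unshifted difference of the 9 tested members was -0.27, with 4 members above the median gene and 5 below it.

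**Figure D1:**
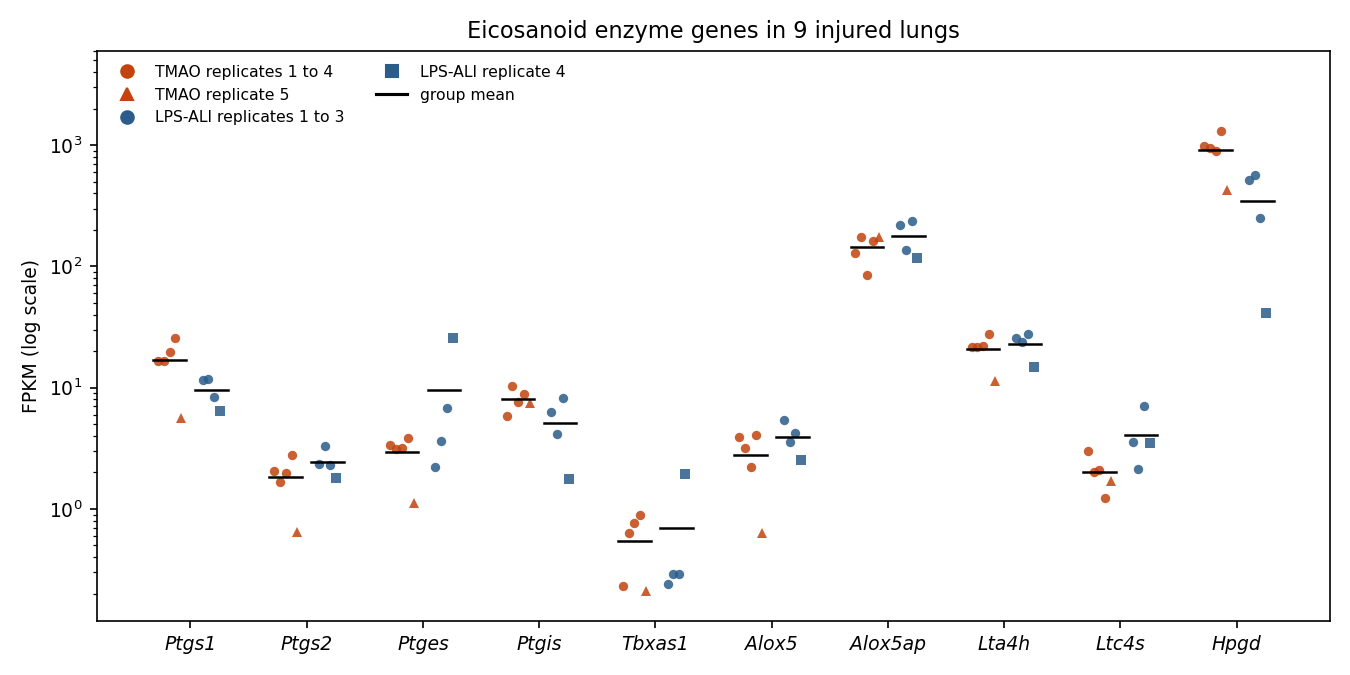
FPKM on a log axis for each gene (columns) and each of the 9 lungs (points), TMAO left of LPS-ALI, with group means as black bars and the libraries that stand apart as a triangle (TMAO replicate 5) and a square (LPS-ALI replicate 4). Levels span 0.21 FPKM for Tbxas1 to 1296 for Hpgd, and TMAO replicate 5 has the lowest value of all 9 libraries for 6 of the 10 genes.

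The cyclooxygenase genes differed in their balance between the groups, while neither passed the test alone. Ptgs1 lies on chromosome 2 from 36230426 to 36252272 of GRCm38, plus strand, and encodes cyclooxygenase 1, which supplies prostanoids in resting tissue and thromboxane in platelets. Its FPKM was 16.71, 16.60, 19.58, 25.70 and 5.61 in TMAO lungs, against 11.67, 11.72, 8.46 and 6.41 in LPS-ALI lungs. The first 4 TMAO lungs lay above every LPS-ALI lung and TMAO replicate 5 lay below all of them. The log2 difference relative to the median gene was 0.83, and the unshifted one 0.66 ± 0.41 (SE), with a limma 95% interval of -0.23 to 1.54 and an adjusted p of 0.998. Without TMAO replicate 5 the groups of Ptgs1 did not overlap, as was the case for 2.93% of 11726 genes in that direction. They also did not overlap without both libraries that stand apart (6.04% of genes), after median-of-ratios scaling (1.39%) and after quantile normalization (1.75%). The unshifted difference of Ptgs1 was 0.98 without TMAO replicate 5 (limma adjusted p = 0.546) and 0.36 without the X-coded LPS-ALI libraries (limma adjusted p = 0.9997).

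Ptgs2, on chromosome 1 from 150100031 to 150108227 on the plus strand, encodes cyclooxygenase 2. It was the least abundant of the 9 tested genes, with 2.05, 1.67, 1.99, 2.78 and 0.65 FPKM in TMAO lungs, against 2.36, 3.31, 2.31 and 1.80 in LPS-ALI lungs. The groups overlapped, with TMAO replicate 4 above 3 of the 4 LPS-ALI lungs. The relative log2 difference was -0.15 and the unshifted one -0.32 ± 0.31 (SE), with a 95% interval of -0.99 to 0.35. The relative difference was -0.02 without LPS-ALI replicate 2, -0.07 without TMAO replicate 2 and -0.28 without LPS-ALI replicate 4 (unshifted -0.20, -0.31 and -0.41), and the unshifted one was -0.14 without TMAO replicate 5.

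Ptgs2 stood at 0.123, 0.101, 0.102, 0.108 and 0.116 of the Ptgs1 level in TMAO lungs, against 0.202, 0.282, 0.273 and 0.281 in LPS-ALI lungs. On this scale the TMAO lungs lay close together and each was below every LPS-ALI lung, TMAO replicate 5 included. With 1 added to each FPKM, TMAO replicate 5 stood apart from its group at a log2 ratio of -2.002, near LPS-ALI replicate 1 at -1.91, while the other TMAO lungs were at -2.82 to -2.54. On the scale of log2(FPKM + 1), the ratio averaged -2.57 ± 0.34 (SD, n = 5) in TMAO and -1.60 ± 0.22 (SD, n = 4) in LPS-ALI lungs, a difference of -0.97. The exact two-sided permutation p was 0.0159, and 0.0317 after Benjamini-Hochberg adjustment over the 4 ratios examined. Those ratios were chosen with earlier results of these data known, so the p-values are descriptive. Without the X-coded libraries the difference was -0.83 (exact permutation p = 0.0476, the smallest possible there, and 0.0952 adjusted over 4 ratios). Removing LPS-ALI lungs could not undo the separation seen with all lungs, so its persistence there adds nothing. Such a ratio shows unequal change and not which of its genes changed.

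The sequences around the start sites of the 3 genes in the called ratios are shown so that the windows of genes with unequal change can be compared. Each runs from 250 bases before to 50 after the RefSeq start, on the gene's strand. The positions are chr2:36230176-36230475 for Ptgs1, chr1:150099781-150100080 for Ptgs2 and chr8:56294302-56294601 for Hpgd, all on the plus strand of GRCm38.p6. Capitals mark matches, on either strand, to the TATA box letters TATAAA, the E-box letters CACGTG, the C/EBP letters TTNCNNAA and the NF-kB letters GGGNNNNNCC.
Ptgs1: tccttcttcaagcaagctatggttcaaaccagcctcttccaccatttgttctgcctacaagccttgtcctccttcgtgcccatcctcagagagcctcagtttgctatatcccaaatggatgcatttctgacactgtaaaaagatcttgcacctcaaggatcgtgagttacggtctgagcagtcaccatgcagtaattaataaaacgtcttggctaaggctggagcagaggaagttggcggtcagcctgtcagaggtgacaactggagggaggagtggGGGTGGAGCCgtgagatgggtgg
Ptgs2: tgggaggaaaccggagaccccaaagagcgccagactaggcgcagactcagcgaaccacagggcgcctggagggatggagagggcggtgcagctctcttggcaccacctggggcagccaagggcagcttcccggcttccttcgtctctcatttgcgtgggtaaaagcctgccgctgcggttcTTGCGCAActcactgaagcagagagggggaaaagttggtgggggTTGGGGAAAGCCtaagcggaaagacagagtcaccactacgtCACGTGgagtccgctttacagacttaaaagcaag
Hpgd: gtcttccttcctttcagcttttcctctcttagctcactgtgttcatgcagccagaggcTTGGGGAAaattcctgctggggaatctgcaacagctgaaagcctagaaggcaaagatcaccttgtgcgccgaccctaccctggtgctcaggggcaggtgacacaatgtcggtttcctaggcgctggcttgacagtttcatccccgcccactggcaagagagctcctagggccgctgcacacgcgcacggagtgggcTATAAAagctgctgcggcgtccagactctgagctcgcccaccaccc
The Ptgs2 window held CACGTG once, which 7.15% of 32851 mouse promoter windows of this length hold. It held TTNCNNAA at 2 places, as TTGCGCAA and TTGGGGAA, and the second overlaps its match to GGGNNNNNCC. The letters TTNCNNAA occur in 40.7% of windows and GGGNNNNNCC in 50.8%. The Hpgd window held TATAAA, found in 13.6% of windows, and TTGGGGAA, while the Ptgs1 window held only a match to GGGNNNNNCC. The TATAAA of Hpgd lies after the RefSeq start, at bases 5 to 10, and not before it. The GENCODE start of Hpgd, 56294585, lies downstream of these bases. RefSeq windows were found for 8 of the 10 genes. Matches are letters in a window and do not show binding.

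**Figure D2:**
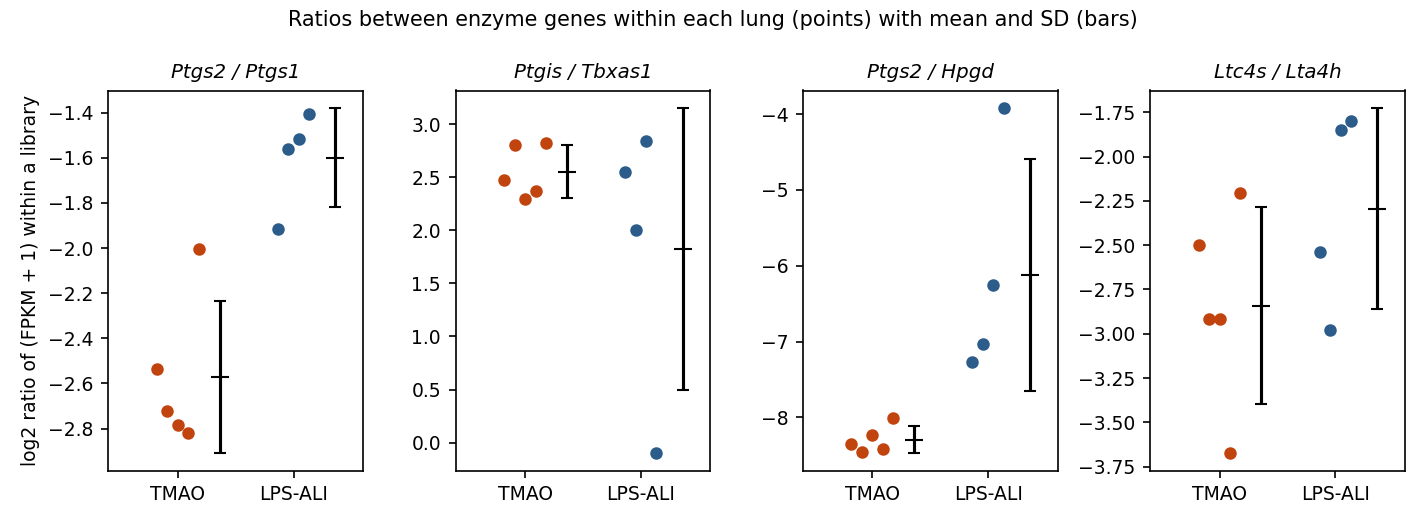
Log2 ratio of (FPKM + 1) between pairs of enzyme genes within each lung (points), with mean and SD (bars), TMAO left of LPS-ALI. The groups do not overlap for Ptgs2 over Ptgs1 or Ptgs2 over Hpgd, and they overlap for the other 2 ratios. The share of other gene pairs whose ratio separates the groups was not computed.

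Among the terminal synthases, the prostaglandin E2 and prostacyclin genes differed in opposite directions without passing the test. Ptges (chromosome 2, 30889471 to 30929863, minus strand) encodes the inducible prostaglandin E synthase of microsomes. It had 3.40, 3.10, 3.17, 3.86 and 1.12 FPKM in TMAO lungs, against 2.23, 3.64, 6.80 and 25.60 in LPS-ALI lungs. Only the X-coded LPS-ALI libraries lay above the TMAO range. The relative log2 difference was -0.81, and the unshifted one -0.98 ± 0.52 (SE; 95% interval -2.09 to 0.13). Without LPS-ALI replicate 4 the relative difference was -0.24 (unshifted -0.37), and without both X-coded libraries it was 0.18 (unshifted -0.03). The monocyte markers, 6 genes with none at 0 in all libraries, had summed FPKM of 134 to 195 in TMAO and 208 to 468 in LPS-ALI lungs. The highest sum was in LPS-ALI replicate 4. Most of the sum was Plac8, whose groups overlapped, with 107.79 to 155.26 FPKM in TMAO and 154.78 to 368.03 in LPS-ALI lungs. The part of the monocyte markers in the Ptges values was not tested.

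Ptgis (chromosome 2, 167191805 to 167240604, minus strand) encodes prostacyclin synthase, whose product widens vessels and restrains platelets. It had 5.83, 10.39, 7.69, 8.80 and 7.55 FPKM in TMAO lungs, against 6.27, 4.18, 8.23 and 1.76 in LPS-ALI lungs. The ranges overlapped, and the lowest value was that of LPS-ALI replicate 4. The relative log2 difference was 0.85, and the unshifted one 0.68 ± 0.39 (SE; 95% interval -0.15 to 1.51). Without LPS-ALI replicate 4 it was 0.48 (unshifted 0.34). In TMAO replicate 5, where 6 other members had their lowest value of all 9 lungs, Ptgis lay within the range of its group. The 8 fibroblast markers, of which 5 had a higher and 3 a lower mean in TMAO lungs and none was at 0 in all libraries, summed to 787 to 1375 FPKM in TMAO and 228 to 934 in LPS-ALI lungs. Most of that sum was Inmt in every lung except LPS-ALI replicate 4, where Inmt had 42.2 FPKM and the other 7 markers summed to 185. Those 7 markers summed to 44.8 to 318 FPKM in TMAO, lowest in replicate 5, and 150.5 to 193 in LPS-ALI lungs. Their part in the Ptgis values was not tested.

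Tbxas1 (chromosome 6, 38875404 to 39084585, plus strand) encodes thromboxane synthase, which platelets and macrophages use to make the vessel constrictor and platelet activator thromboxane A2. It was the lowest of the 10 genes, with 0.23, 0.63, 0.77, 0.90 and 0.21 FPKM in TMAO lungs, against 0.24, 0.29, 0.29 and 1.96 in LPS-ALI lungs. Only LPS-ALI replicate 4 reached 1 FPKM, and the other LPS-ALI lungs lay near the lowest TMAO lungs. The platelet markers, 8 genes of which all 8 had a lower mean in TMAO lungs and none was at 0 in all libraries, summed to 19.95 to 28.11 FPKM in TMAO and 32.89 to 80.59 in LPS-ALI lungs, the highest again in LPS-ALI replicate 4. Only 5 of the 8 reached the level needed for the test. Most of the sum was Pf4, whose groups overlapped, with 12.58 to 24.20 FPKM in TMAO and 22.17 to 54.20 in LPS-ALI lungs. The part of platelets in the Tbxas1 and Ptgs1 values was not tested. Tbxas1 shares bases with Hipk2 on the opposite strand, which averaged 4.47 FPKM, and with no strand setting given, reads of the 2 genes cannot be told apart there. The log2 ratio of Ptgis over Tbxas1 was 2.55 ± 0.25 (SD, n = 5) in TMAO and 1.82 ± 1.33 (SD, n = 4) in LPS-ALI lungs, where replicate 4 alone was at -0.10. The exact permutation p was 0.254 (0.254 adjusted over 4 ratios), and without LPS-ALI replicate 4 the difference was 0.087 in place of 0.73.

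The leukotriene genes were led by Alox5ap, and none of them passed the test. Alox5ap (chromosome 5, 149264767 to 149288153, plus strand) encodes the activating protein of 5-lipoxygenase and had 128.90, 173.97, 84.33, 163.43 and 176.26 FPKM in TMAO lungs, against 220.93, 135.90, 235.51 and 116.81 in LPS-ALI lungs. It was the one leukotriene gene with its highest TMAO value in replicate 5. The relative log2 difference was -0.10 and the unshifted one -0.27 ± 0.33 (SE; 95% interval -0.98 to 0.44). Leaving out 1 library turned the sign of the relative difference in 2 cases. It was 0.11 (unshifted -0.09) without TMAO replicate 3 and 0.12 (unshifted -0.11) without LPS-ALI replicate 3. The relative difference was -0.63 (unshifted -0.53) without both libraries that stand apart. It was -0.40 (unshifted -0.35) without TMAO replicate 5 and -0.32 (unshifted -0.45) without LPS-ALI replicate 4. The 9 neutrophil markers, of which 3 had a higher and 6 a lower mean in TMAO lungs and none was at 0 in all libraries, summed to 7705 to 14733 FPKM in TMAO and 7587 to 20664 in LPS-ALI lungs, mostly through S100a8 and S100a9. The other 7 markers summed to 376 to 836 FPKM in TMAO and 329 to 874 in LPS-ALI lungs. Their part in the Alox5ap values was not tested.

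Alox5 (chromosome 6, 116410077 to 116461178, minus strand) encodes 5-lipoxygenase itself. Its FPKM was 3.92, 3.17, 2.22, 4.04 and 0.63 in TMAO lungs, against 5.45, 3.60, 4.23 and 2.53 in LPS-ALI lungs. The groups overlapped, and the unshifted log2 difference of -0.46 ± 0.38 (SE; 95% interval -1.27 to 0.36; relative -0.29) was -0.18 without TMAO replicate 5 (relative -0.23). The 10 alveolar macrophage markers, of which 8 had a lower mean in TMAO lungs and none was at 0 in all libraries, summed to 94.2 to 285 FPKM in TMAO and 233 to 453 in LPS-ALI lungs. Their sum was lowest in TMAO replicate 5, as Alox5 was, and their part in the Alox5 values was not tested. Transcripts of the activating protein were thus far more abundant per length than those of the enzyme it serves in each of the 9 lungs.

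Lta4h (chromosome 10, 93453411 to 93484875, plus strand) encodes the hydrolase that makes leukotriene B4. Its highest and lowest values were closer in ratio than those of the other 9 genes, with 21.52, 21.66, 22.22, 27.49 and 11.43 FPKM in TMAO lungs, against 25.70, 23.88, 27.87 and 14.79 in LPS-ALI lungs. The lowest value of each group came from the library that stood apart. Its relative log2 difference was 0.02 and the unshifted one -0.15 ± 0.35 (SE; 95% interval -0.90 to 0.59), and the unshifted difference was 0.045 under median-of-ratios scaling.

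Ltc4s (chromosome 11, 50236461 to 50238616, minus strand) encodes leukotriene C4 synthase, which makes the parent cysteinyl leukotriene. It had 2.99, 2.00, 2.08, 1.23 and 1.70 FPKM in TMAO lungs, against 3.59, 2.15, 7.00 and 3.53 in LPS-ALI lungs. Only TMAO replicate 1 lay above the lowest LPS-ALI lung. The relative log2 difference was -0.53 and the unshifted one -0.70 ± 0.34 (SE; 95% interval -1.42 to 0.02; limma adjusted p = 0.998). The groups did not overlap without TMAO replicate 1 (as for 1.47% of genes in that direction) or without LPS-ALI replicate 2 (2.93%). The relative difference was -0.22 (unshifted -0.45) without LPS-ALI replicate 3 and -0.15 (unshifted -0.37) without both X-coded libraries. Mast cells and basophils, which use this enzyme, had low marker levels: Cpa3, Mcpt8, Ms4a2 and Fcer1a had at most 0.57 FPKM in TMAO and 0.69 in LPS-ALI lungs. The 6 markers of these cells, none at 0 in all libraries, summed to 23.4 to 133 FPKM in TMAO and 58.0 to 101 in LPS-ALI lungs through Gata2 and Hdc, which other cells also express. Their part in the Ltc4s values was not tested. The log2 ratio of Ltc4s over Lta4h was -2.84 ± 0.56 (SD, n = 5) in TMAO and -2.29 ± 0.57 (SD, n = 4) in LPS-ALI lungs, with overlapping values and an exact permutation p of 0.214 (0.254 adjusted over 4 ratios).

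**Figure D3:**
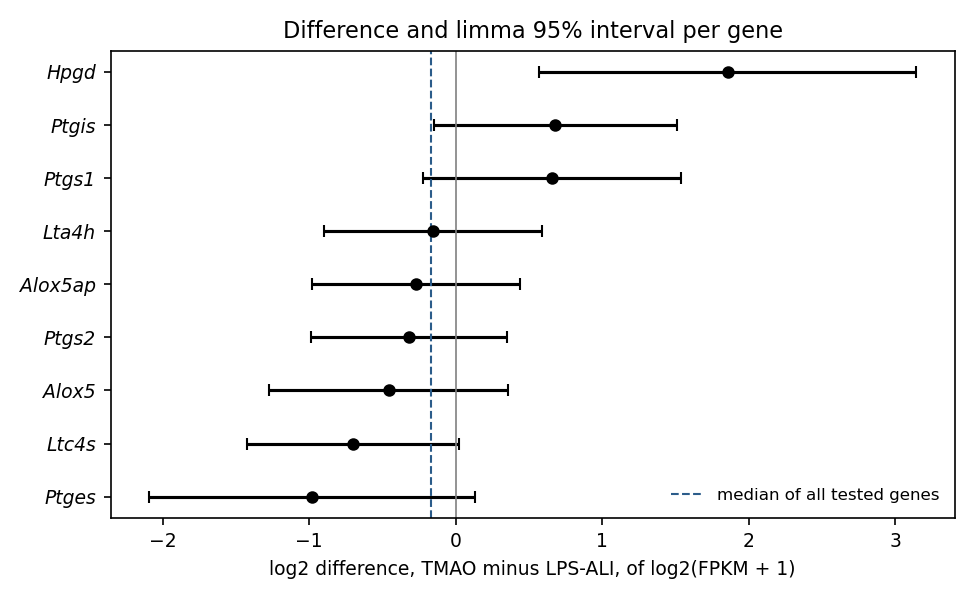
Log2 difference of log2(FPKM + 1), TMAO minus LPS-ALI (x axis), with limma 95% intervals for the 9 tested genes, ordered by size. The dashed line is the median of all tested genes at -0.17, and the interval of Hpgd (0.57 to 3.14) is the one that lies off 0.

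Hpgd (chromosome 8, 56294585 to 56321043, plus strand) encodes hydroxyprostaglandin dehydrogenase, which oxidizes prostaglandins to forms with little activity. It was the most abundant member in 8 of the 9 lungs, with 992.73, 939.52, 895.61, 1296.37 and 424.45 FPKM in TMAO lungs, against 518.18, 562.55, 252.55 and 41.30 in LPS-ALI lungs. The first 4 TMAO lungs lay above every LPS-ALI lung, and TMAO replicate 5 lay within the LPS-ALI range. In LPS-ALI replicate 4 it ranked below Alox5ap. The ratio of means was 2.65. The relative log2 difference was 2.03 and the unshifted one 1.86 ± 0.60 (SE), with a limma unadjusted p of 0.00773 and an adjusted p of 0.998. This p ranked 62nd of 11817 genes, and a relative difference of at least 1 was found for 1.04% of genes.

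The size of the Hpgd difference rested largely on LPS-ALI replicate 4 and its direction did not. Without that library the relative difference was 1.16 (unshifted 1.03), and LPS-ALI lungs averaged 444 ± 168 FPKM (SD, n = 3). Without both X-coded libraries it was 0.88 (unshifted 0.66). Without TMAO replicate 5 the groups did not overlap, as for 2.93% of genes in that direction, and the unshifted difference was 2.11 (limma adjusted p = 0.581). Hpgd stood at 484, 563, 450.1, 466 and 653 times the Ptgs2 level in TMAO lungs, against 219.6, 170.0, 109 and 22.9 times in LPS-ALI lungs. Every TMAO lung lay above every LPS-ALI lung. TMAO replicate 5 was highest on this scale, and with 1 added to each FPKM it was the TMAO lung nearest to the LPS-ALI lungs, at a log2 ratio of Ptgs2 over Hpgd of -8.01, against -7.27 in LPS-ALI replicate 1. The log2 ratio of Ptgs2 over Hpgd was -8.29 ± 0.18 (SD, n = 5) in TMAO and -6.12 ± 1.53 (SD, n = 4) in LPS-ALI lungs, a difference of -2.17. Its exact permutation p was 0.00794, the smallest that these groups allow, and 0.0317 adjusted over 4 ratios. These p-values are descriptive too, as the ratios were chosen with earlier results known. Without LPS-ALI replicate 4 the difference was -1.44 (exact permutation p = 0.0179, 0.0357 adjusted over 4 ratios), and without both X-coded libraries it was -1.14 (exact permutation p = 0.0476, 0.0952 adjusted), where 0.0476 is the smallest p possible.

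Hpgd was set beside markers of the lung cells that could carry it, a comparison chosen after the values were seen and given without a test. The 9 endothelial markers, of which 7 had a higher and 2 a lower mean in TMAO lungs and none was at 0 in all libraries, summed to 553 to 2193 FPKM in TMAO and 678 to 1442 in LPS-ALI lungs. Per 1000 summed endothelial FPKM, Hpgd had 766, 656.5, 774, 591 and 768 FPKM in TMAO lungs, against 406, 390.2, 228 and 60.9 in LPS-ALI lungs. TMAO replicate 5 thus lay with its group on this measure. The 8 alveolar type 2 markers, of which 7 had a lower mean in TMAO lungs and none was at 0 in all libraries, summed to 4870 to 10867 FPKM in TMAO and 1249 to 14468 in LPS-ALI lungs. Per 1000 summed FPKM of these, Hpgd had 86.45 to 136 in TMAO and 32.7 to 44.1 in LPS-ALI lungs. On neither scale did the groups overlap, and the share of all genes that separate on these scales was not computed. The part of these cells in the Hpgd values was not tested. Against single markers, the ratio of Hpgd was higher in every TMAO lung than in any LPS-ALI lung for 6 of the 9 endothelial and 8 of the 8 alveolar type 2 markers. Ptgs1 per 1000 summed endothelial FPKM was 10.15 to 16.9 in TMAO and 7.64 to 9.46 in LPS-ALI lungs. That separation did not hold against Pecam1 alone. LPS-ALI replicate 4 had 6.41 FPKM of Ptgs1 beside 26.96 of Pecam1, and TMAO replicate 4 had 25.70 beside 282.35. Per 1000 summed platelet FPKM, Ptgs1 was 225.8 to 955.4 in TMAO and 79.54 to 261.4 in LPS-ALI lungs, with overlap.

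**Figure D4:**
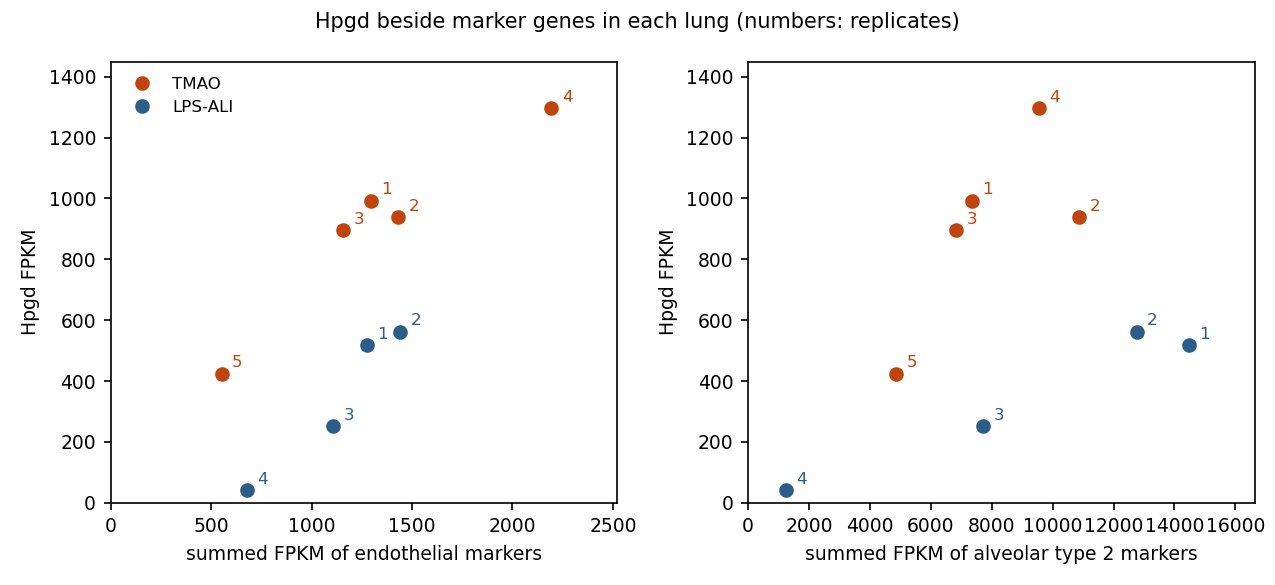
Hpgd FPKM (y axis) against the summed FPKM of endothelial (left) and alveolar type 2 (right) markers in each lung, with replicate numbers beside the points. At like marker sums the TMAO lungs lie higher, as with 896 and 253 FPKM of Hpgd in TMAO replicate 3 and LPS-ALI replicate 3, whose endothelial sums were 1158 and 1107.

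By mean level over the 9 lungs the order was Hpgd, Alox5ap, Lta4h, Ptgs1, Ptgis, Ptges, Alox5, Ltc4s, Ptgs2 and Tbxas1. Only the ranges of Alox5ap and Lta4h were separate among neighbours in this order, and Alox5ap was above Lta4h in 9 of 9 lungs. Ptges and Alox5 could not be ordered, with Ptges higher in 5 of 9 lungs. On log2 values relative to the median gene of each library, Hpgd varied most closely with Ptgs1 (Pearson r = 0.914) and against Ptges (r = -0.899). These are descriptions over libraries in which LPS-ALI replicate 4 had the lowest Hpgd and the highest Ptges value.

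Outside the 10 genes, those whose pattern on the same scale over the 9 libraries was most like that of Hpgd were Mfap2, Hey1 and Ddah2 (Pearson r = 0.983, 0.982 and 0.981 among 6569 genes). Mfap2, for a microfibril protein of elastic fibres, ranged over 17.03 to 44.72 FPKM in TMAO and 1.68 to 22.59 in LPS-ALI lungs. Hey1, a transcription factor gene downstream of Notch, ranged over 10.25 to 37.81 and 3.86 to 16.47 FPKM in TMAO and LPS-ALI lungs. Among those closest to Ptgis were Snhg18 and Acaa2 (r = 0.954 and 0.948). Acaa2, for a mitochondrial thiolase of fatty acid oxidation, had 25.86 to 34.10 FPKM in TMAO and 14.16 to 30.62 in LPS-ALI lungs. Closest to Alox5ap were Scnm1, Dtymk and Sap30 (r = 0.953, 0.953 and 0.934), and closest to Ptgs2 were Vsig2, Tmem160 and Commd1 (r = 0.890, 0.866 and 0.831). All these r values are the highest of a search among 6569 genes over 9 libraries, and no test was run on them. LPS-ALI replicate 4 had the lowest FPKM of both Hpgd and Ptgis.

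The remaining genes of the pathway were followed through 5 lists, in which 0 tested members passed at an adjusted p of 0.05 and 0 at an unadjusted p under 0.05 by limma. Of 15 arachidonate release genes 6 were tested, 2 above and 4 below the median gene, with a median relative difference of -0.05. Pla2g4a, the cytosolic phospholipase that supplies arachidonic acid, had 1.19 ± 0.48 FPKM (SD, n = 5) in TMAO and 1.57 ± 0.61 (SD, n = 4) in LPS-ALI lungs. Pla2g1b, a secreted phospholipase, had 9.77 ± 4.95 and 17.96 ± 10.9 FPKM in TMAO and LPS-ALI lungs. Acsl4, which activates arachidonic acid for storage in lipids, had 6.53 ± 2.84 FPKM in TMAO and 7.60 ± 1.69 in LPS-ALI lungs. Of 11 listed symbols for other synthases and reductases, 8 were tested and split evenly around the median gene. Ptgr1, for a reductase that acts after Hpgd on prostaglandins and also inactivates leukotriene B4, had 1.86 ± 0.65 FPKM in TMAO and 3.29 ± 0.73 in LPS-ALI lungs, with no overlap between the groups (2.58 at most in TMAO, 2.68 at least in LPS-ALI; relative log2 difference -0.43, limma unadjusted p = 0.0673), as for 1.36% of tested genes in that direction. Ptges2, for another prostaglandin E synthase, had 4.78 ± 3.25 and 7.52 ± 3.42 FPKM in TMAO and LPS-ALI lungs, and the reductase gene Zadh2 had 4.41 ± 1.97 and 5.54 ± 2.93.

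Of 11 genes for prostanoid receptors and transporters, 2 reached the level needed for the test. Slco2a1, the prostaglandin uptake carrier that feeds Hpgd, had 28.4 ± 17.8 FPKM (7.04 to 55.91) in TMAO and 17.2 ± 8.30 (5.41 to 24.75) in LPS-ALI lungs, a relative log2 difference of 0.78 with a limma unadjusted p of 0.272. Ptgir, the prostacyclin receptor gene, had 1.68 ± 1.10 FPKM in TMAO and 2.17 ± 0.57 in LPS-ALI lungs. Of 12 leukotriene receptor and processing genes 9 were tested, 2 above and 7 below the median gene, with a median relative difference of -0.13. Ggt1, an enzyme that converts leukotriene C4 to D4, had 2.98 ± 1.10 FPKM in TMAO and 6.43 ± 4.97 in LPS-ALI lungs, where replicate 3 alone had 13.85. Cyp4f18, which in mouse neutrophils degrades leukotriene B4, had 2.56 ± 1.61 FPKM in TMAO and 6.43 ± 6.55 in LPS-ALI lungs, where replicate 3 alone had 16.11 and the others 2.39 to 4.78. Cysltr2, a receptor for cysteinyl leukotrienes, had 0 to 1.21 FPKM in TMAO and 0 to 1.81 in LPS-ALI lungs. Of 9 genes for other lipoxygenases and pro-resolving receptors, 2 were tested. Fpr2, a receptor on phagocytes, had 124.5 ± 29.8 FPKM in TMAO and 149 ± 31.3 in LPS-ALI lungs, and Cmklr1, the chemerin receptor, had 7.72 ± 4.60 and 5.91 ± 3.18.

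**Figure D5:**
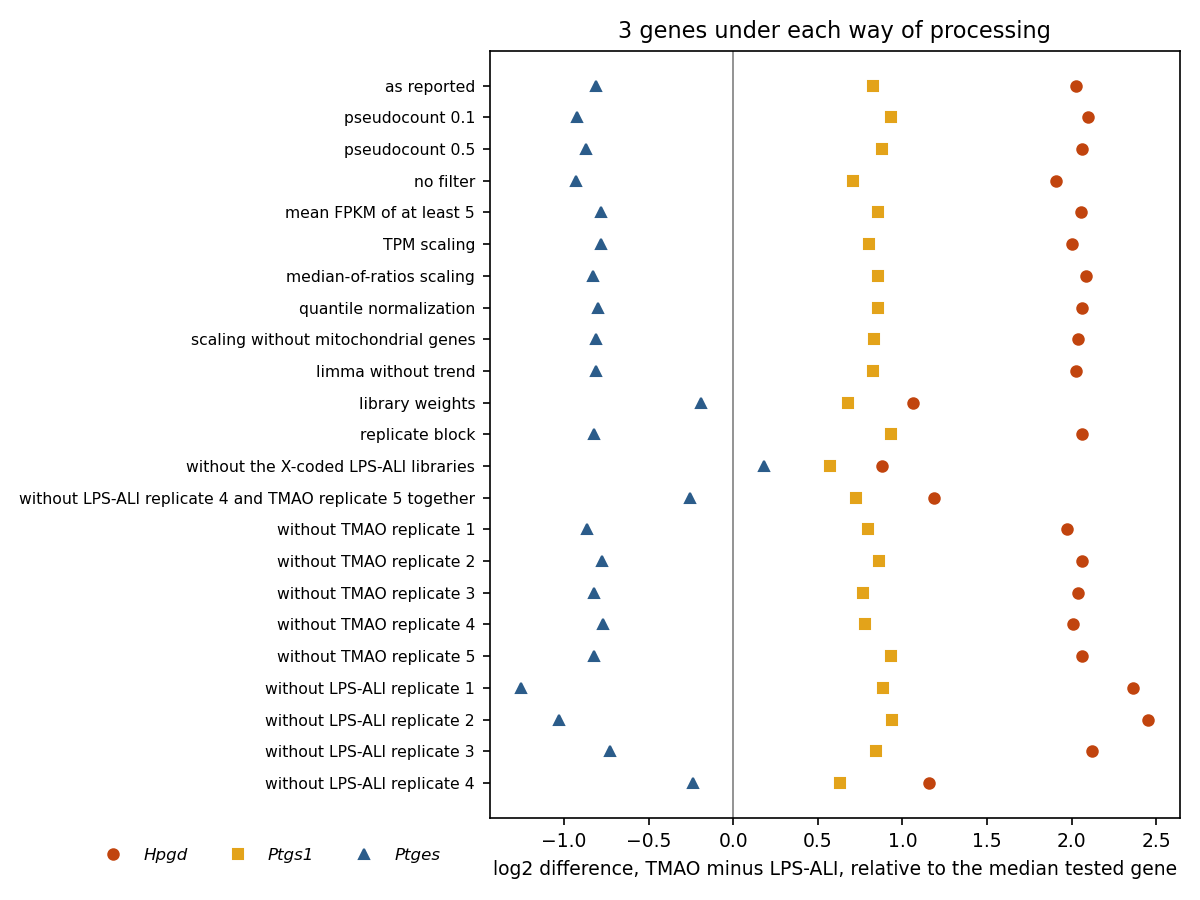
Log2 difference relative to the median tested gene (x axis), TMAO minus LPS-ALI, for Hpgd, Ptgs1 and Ptges under each way of processing (rows). Hpgd and Ptgs1 stay above 0 throughout, and Ptges is at -0.81 as reported and at 0.18 without the X-coded libraries.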

How the data were processed

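The authors deposited FPKM values, rounded to 2 decimals, with 1 column per library. The build was mm10, and fastp, HISAT2, SAMtools and featureCounts were run, per the submitters' processing notes. Versions, annotation, strand setting and gene lengths were not stated in the sources used here. The labels name lung as tissue, although the extraction text mentions platelets. The marker sums are those of lung, with alveolar type 2 markers at 1249 FPKM or more. The 10 genes, the gene lists, the 4 ratios and the rule for named genes (all members, and up to 3 genes with the smallest p per list) were chosen with earlier results of these data known. The result of 1 gene that the likeness rule names is not reported here. Each library is labelled as a separate mouse. Tests used log2(FPKM + 1), a scale that understates changes of low genes, and limma 3.58.1 in R 4.3.3 (mean-variance trend, two-sided, Benjamini-Hochberg). The test covered the 11817 genes that reached 1 FPKM in 4 or more libraries. Ratios were tested by exact permutation, counting splits whose difference in means was at least as far from 0. Coordinates are from GENCODE M21 on GRCm38, to which 52125 of 52381 identifiers matched, and promoter windows from RefSeq on GRCm38.p6. Mouse numbers are shared between groups, but same-numbered samples did not deviate together (correlations -0.175 to 0.045), so they were not paired. The library pair with most equal values shared 63 of 11817, so no library was counted as a copy. Alternatives covered pseudocounts, filters, scalings, variance models and left-out libraries. Python 3.11.15, pandas 2.3.3, scipy 1.17.1 and matplotlib 3.10.9 were used.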

Additional observations from a re-analysis of the deposited data

Results flagged for a closer look

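A value is listed here where it lies far from the rest of its group by Dixon's 95% criterion. Of 54 groups of values examined 5 gave such a value, where chance gives about 1 in 20. TMAO replicate 5 had 1.12 FPKM of Ptges, against 3.10 to 3.86 in the other TMAO lungs. LPS-ALI replicate 4 had 1.96 FPKM of Tbxas1, against 0.24 to 0.29 in the other LPS-ALI lungs, and 10.11 FPKM of Acsl4, against 6.40 to 6.97. LPS-ALI replicate 3 had 13.85 FPKM of Ggt1, against 3.31 to 4.39. LPS-ALI replicate 1 was listed at 0 FPKM for Cysltr2, against 1.55 to 1.81 in the other LPS-ALI lungs.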

How the results depend on the processing

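The differences of the 9 tested genes kept their unshifted direction under 21 or 22 alternatives each, except Lta4h, and 0 passed an adjusted p of 0.05 under any of them. Relative to the median gene, Alox5ap (2 of 22), Ptges (1 of 22) and Lta4h (8 of 22) turned. The Lta4h difference was -0.15, against 0.045 under median-of-ratios scaling, 0.040 under quantile normalization, 0.039 with the replicate block, and -0.34 to 0.039 when each library was left out, positive only without TMAO replicate 5. The cause was not tested. The Ptgs2 over Ptgs1 difference of -0.97 and the Ptgs2 over Hpgd difference of -2.17 kept their direction under 13 alternatives. Dropping libraries could not turn that direction, as every TMAO lung lay below every LPS-ALI lung. Leaving out each library in turn gave -1.12 to -0.91 and -2.56 to -1.44. Their adjusted p rose to 0.0571 without any 1 TMAO library or without LPS-ALI replicate 4 and TMAO replicate 5 together (-1.05 and -1.51), and to 0.0952 without the X-coded libraries (-0.83 and -1.14). With those numbers of libraries the exact test cannot give an unadjusted p below 0.0286 and 0.0476. The number of genes past the adjusted threshold was 51 with library weights, 0 to 3 when each library was left out (3 without TMAO replicate 4 and 1 without LPS-ALI replicate 3), and 0 with the replicate block, which used the 8 libraries with shared mouse numbers and gave 742 genes at an unadjusted p under 0.05. An unadjusted p under 0.05 was reached by 396 genes, 50 higher and 346 lower, against 321 higher and 447 lower with median-of-ratios scaling and 504 higher and 345 lower without TMAO replicate 5. Members with no overlap numbered 0, against 2 (Ptgs1 and Hpgd) with median-of-ratios scaling and without LPS-ALI replicate 4 and TMAO replicate 5 together, 1 (Ptgs1) with quantile normalization, and 0 to 2 when each library was left out. The share of all genes with no overlap was 1.48%, against 3.15%, 8.70% and 3.40% in those settings and 1.68% to 4.68% in the leave-outs. Absolute depth is unknown, so how far it limits low genes such as Tbxas1, with 8 of 9 values under 1 FPKM, could not be computed.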
